A study of Mus musculus with 24 samples.

Results

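The 34 genes described here make cholesterol, control its synthesis, move it between cells and organelles, or turn it over. They were chosen by gene symbol from a table of 54532 genes measured in the brains of 24 mice, and all 34 were found. All mice were male wild type C57Bl6 animals aged 8 to 12 weeks, and each received either 0.9% saline or angiotensin II at 0.7 mg/kg/d from a subcutaneous osmotic minipump for 2 weeks. On the day of pump surgery they also received a tail vein injection of saline or of 1000000 human amnion epithelial cells (AECs), which line the sac around the foetus. The 4 groups of 6 mice were therefore vehicle, angiotensin II, vehicle + AEC and angiotensin II + AEC. Each mouse gave 1 poly-A RNA library from brain, so cell types were mixed. In such bulk tissue, fewer cells of a type and less RNA per cell cannot be told apart.

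The brain makes nearly all of its own cholesterol, because lipoproteins from blood do not cross the blood-brain barrier. Acetyl-CoA is turned into mevalonate and then into isoprenoid units, farnesyl groups are joined in pairs into squalene, and the ring-shaped sterols made from squalene are trimmed to cholesterol. When membrane sterol is low, SCAP carries the SREBP transcription factors to the Golgi for activation, and the INSIG proteins hold this complex back when sterol is plentiful. Neurons remove excess cholesterol as 24-hydroxycholesterol, made by CYP46A1. Liver X receptors sense such oxysterols and switch on efflux transporters such as ABCA1 and ABCG1.

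The values are FPKM (fragments scaled for gene length and library size) from libraries of 16536449 to 25308700 recovered fragments. The libraries fell into 2 sets. In 6 of them (vehicle 5 and 6, angiotensin II 5, vehicle + AEC 6, angiotensin II + AEC 5 and 6) the FPKM of all genes summed to 338334.5 to 348596.7, and in the other 18 to 277115.9 to 298300.6. Mitochondrial genes took 6.17 to 6.85% of fragments in the 6 and 4.79 to 5.75% in the 18. The labels give no batch that matches this split. Neuronal markers were present in every library. The sum of 6 of them was 800 to 851 FPKM in the 6 libraries and 733 to 792 in the 18.

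Cyp46a1 had the highest level of the 34 genes, with a mean of 60.6 FPKM (range over 24 mice 51.6 to 82.9). That placed it above 97.1% of the 27286 genes tested. The plot of FPKM in each library shows the genes by role. Among the mevalonate steps, Hmgcs1, which makes HMG-CoA, was highest at a mean of 33.7 FPKM, followed by the kinase gene Pmvk at 23.9 and Acat2, the cytosolic thiolase that joins acetyl-CoA units, at 18.2. The order of Hmgcs1 and Pmvk turned between the 2 sets, with 34.6 against 21.3 FPKM in the 18 libraries and 30.9 against 31.9 in the 6. The decarboxylase Mvd had a mean of 13.0 FPKM and mevalonate kinase, Mvk, one of 9.48. Idi1, the isomerase of isopentenyl diphosphate, had a mean of only 3.01 FPKM.

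Fdps, farnesyl diphosphate synthase, was listed at 0.106 to 0.395 FPKM, or 8 to 39 fragments per library, lower than any other mevalonate gene. This value is uncertain. Of its 4208 annotated exonic bases, 1124 (26.7%) also belong to Gm43738, a gene model on the same strand that was listed at 0 in every library. How reads shared by 2 gene models were counted is not given in the sources used here. In all, 12 of the 34 genes share exonic bases with another gene on either strand, and 6 share at least 10%. Of these 6, Fdps and Tm7sf2 share them with a gene on the same strand. Hmgcs1, Fdft1, Scap and Ch25h share them only with a gene on the opposite strand.

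The 11 genes of the squalene and sterol steps ranged from Lss (lanosterol synthase, mean 2.60 FPKM) to Fdft1 (squalene synthase, 23 FPKM), with a median of 9.84 FPKM. Sqle, squalene epoxidase, had a mean of 10.3 FPKM, and the demethylation genes Cyp51 and Msmo1 had means of 15.7 and 12.9 FPKM. Other sterol genes differed in level, with 13.1 FPKM for Sc5d, 7.08 for Dhcr7 and 3.38 for Hsd17b7. Of the regulators, Srebf2 (SREBP2, the main activator of cholesterol genes) had a mean of 34.2 FPKM against 14.2 for Srebf1. Insig1 had a mean of 20.4 FPKM and Insig2 one of 14.3 in the 18 libraries, against 12 and 11.9 in the 6. Nr1h2, liver X receptor beta, was at 22 FPKM and Nr1h3, liver X receptor alpha, at 2.57.

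Of the transport genes, the efflux gene Abcg1 stood at a mean of 16.6 FPKM and Abca1 at 1.78. Npc2 and Npc1, which pass cholesterol out of lysosomes, stood at 16.1 and 5.92 FPKM, Stard4, a cytosolic sterol carrier, at 4.71 and the lipase gene Lpl at 1.38. The other turnover genes were lower than Cyp46a1. Soat1, which esterifies cholesterol for storage, had a mean of 2.98 FPKM and Ch25h, which makes 25-hydroxycholesterol, one of 0.586 FPKM. These means lay above 63.7% and 43.6% of the genes tested. Over the 18 libraries of low total FPKM the coefficient of variation between mice had a median of 7.07% across the 34 genes, was 3.62% for Srebf2 and reached 80.6% for Ch25h.

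**Figure D1:**
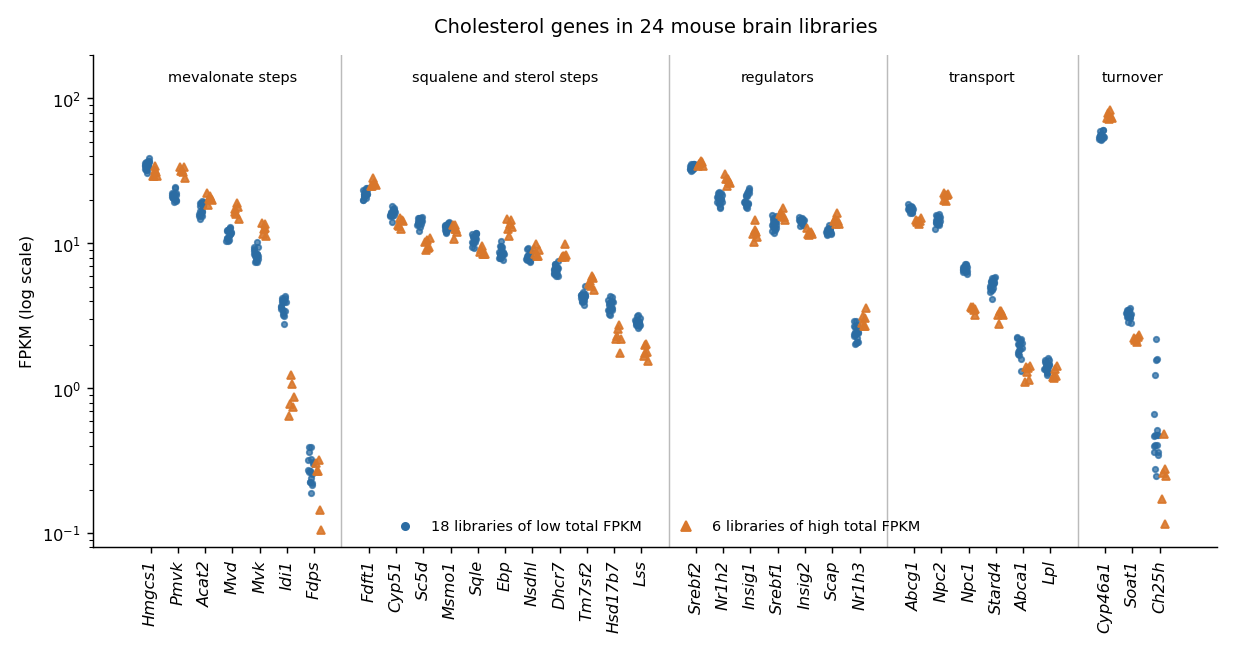
FPKM (log scale) of the 34 genes in 24 brain libraries, grouped by role and ordered by mean. Each circle is 1 of the 18 libraries of low total FPKM and each triangle 1 of the 6 of high total; Cyp46a1 is highest at a mean of 60.6 FPKM, and Idi1 is 4.17-fold higher in the circles than in the triangles.

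Promoter sequence is shown for Hmgcs1, the gene of an early step, and for Insig1, which was chosen after its values were seen because a comparison below turns on it. RefSeq windows of 250 bases before to 50 after a start site (GRCm38.p6) were matched by symbol for 27 of the 34 genes. In capitals stand the sterol regulatory element core TCACNCCAC, which SREBPs bind, the CCAAT box, which NF-Y binds, and the E-box CACGTG, each searched on both strands with no motif overlapping another in these lines. ATTGG is CCAAT read on the other strand. The Hmgcs1 line is chr13:119690101-119690350, plus strand, the 250 bases before its RefSeq start. The Insig1 line is chr5:28071162-28071362, plus strand, and ends before the gene's start in the files.
Hmgcs1: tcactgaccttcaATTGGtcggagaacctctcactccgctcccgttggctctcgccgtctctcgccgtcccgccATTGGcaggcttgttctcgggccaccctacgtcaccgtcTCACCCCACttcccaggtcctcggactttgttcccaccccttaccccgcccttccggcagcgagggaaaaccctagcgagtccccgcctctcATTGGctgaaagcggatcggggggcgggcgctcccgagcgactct
Insig1: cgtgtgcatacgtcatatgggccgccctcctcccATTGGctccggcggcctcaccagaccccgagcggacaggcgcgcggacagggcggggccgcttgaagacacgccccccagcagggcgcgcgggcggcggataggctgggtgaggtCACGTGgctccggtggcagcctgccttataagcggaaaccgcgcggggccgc
The core was found in 1 of the 27 genes, Hmgcs1, where it begins at position -137 from the RefSeq start, and in 1.44% of the 27025 genes with a window. CCAAT was found in 21 of the 27 and in 41.1% of all genes. The E-box was found in 6 of the 27 (Abca1, Dhcr7, Hsd17b7, Insig1, Sc5d and Scap) and in 8.09% of all genes. A match says only that these letters stand in the window.

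Many of these genes differed between the 2 library sets, and Idi1 differed most. In the 6 libraries of high total FPKM, Idi1 read 0.648, 0.783, 1.23, 1.07, 0.741 and 0.878 FPKM, against 2.80 to 4.34 in the other 18. Its mean was 0.892 ± 0.219 FPKM (SD, n = 6) against 3.72 ± 0.430 (n = 18), so it was 4.17-fold higher in the 18. Npc1 was 1.91-fold higher in the 18 (6.18 to 7.24 against 3.20 to 3.67 FPKM), and Insig1 1.70-fold (17.5 to 24.1 against 10.3 to 14.6 FPKM). Other genes went the other way. Ebp, a sterol isomerase, was 1.53-fold higher in the 6 (11.2 to 14.8 against 7.75 to 10.3 FPKM), Pmvk 1.5-fold and Mvk 1.49-fold. Cyp46a1 read 72.1 to 82.9 FPKM in the 6 and 51.6 to 60.6 in the 18.

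In all, 20 of the 34 genes did not overlap between the 2 sets, against 27.5% of the 27286 genes tested. A mean of at least 1 FPKM was reached by 32 of the 34 and by 13649 genes of the table. No share was taken among genes of like level, so the background is not matched for level. Of the 20 genes, 10 were higher in the 6 (background 11.2%), namely Mvk, Pmvk, Mvd, Fdft1, Ebp, Dhcr7, Scap, Nr1h2, Npc2 and Cyp46a1. The other 10 were lower in the 6 (background 16.3%), namely Idi1, Lss, Hsd17b7, Sc5d, Insig1, Insig2, Abcg1, Stard4, Npc1 and Soat1. The first 10 had a median transcript GC content of 55.4% (49.2 to 60.9) and the second 10 one of 46.5% (41.1 to 53.6). As a description across the 34 genes, which share libraries, the difference between sets had a Spearman rho of 0.63 with GC content and of -0.34 with gene length. Across 13633 genes with a mean of at least 1 FPKM the same rho values were 0.47 and -0.52. Summed cell type markers also differed without overlap for oligodendrocytes (1493 to 1807 FPKM in the 6, 1203 to 1469 in the 18). So did those of endothelium (111 to 133 against 71.1 to 95.8) and meningeal fibroblasts (19.7 to 24.2 against 12.5 to 16.1). Choroid plexus (836 to 1122 against 353 to 770) and neuronal sums did not overlap either. Sums of astrocyte, microglia, and neutrophil and blood markers overlapped. The part of base or cell composition in these differences was not tested. The set is no treatment, so values are given below for all 24 libraries and again within the 18.

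**Figure D2:**
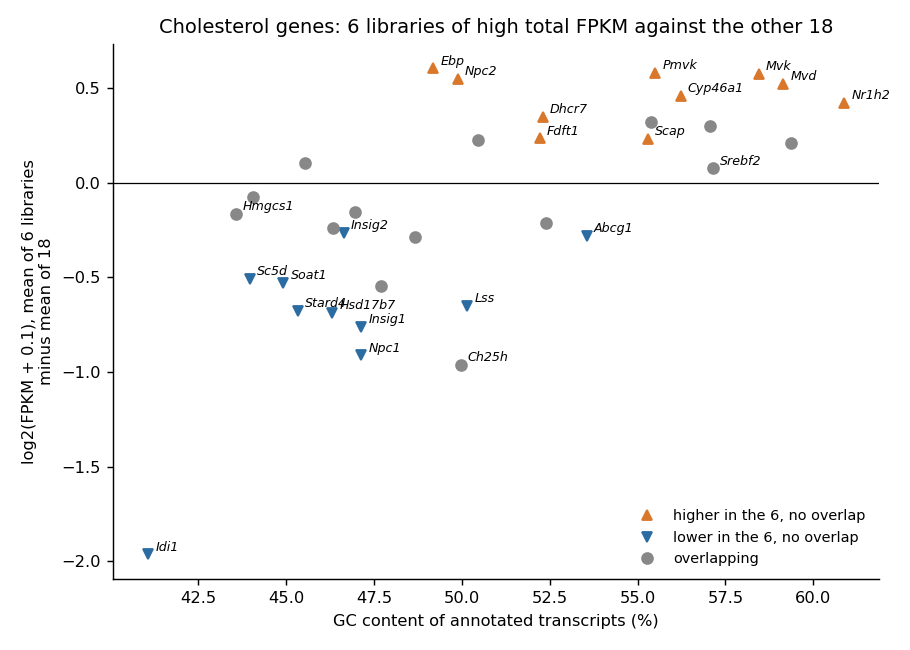
Difference between the mean log2(FPKM + 0.1) of the 6 libraries of high total FPKM and that of the other 18 (vertical axis) against GC content of the annotated transcripts in percent, 1 point per gene. Up triangles are the 10 genes higher in the 6 without overlap, down triangles the 10 lower and circles the 14 that overlap; Idi1 lies lowest at -1.96.

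The first question was whether 2 weeks of angiotensin II changed these genes. With all 24 libraries in a limma fit of log2(FPKM + 0.1), none of the 34 genes had an unadjusted p under 0.05 for angiotensin II against vehicle, where 2.21% of all genes did. A fit limited to genes with a mean of at least 1 FPKM held 32 of the 34. None of those had such a p, where 0.681% of all genes in that fit did. In a list this short, a count of 0 lies near either share. By voom on recovered fragments the count was also 0. No gene of the table had an adjusted p under 0.05 in any comparison (0.0%). Fold changes of the 34 ran from -0.23 for Mvk to 0.65 for Ch25h on the log2 scale, with 18 higher and 16 lower and a median of 0.02, equal to the median of 0.02 over all genes. For 30 of the 34 the 95% confidence interval lay within a 1.5-fold change in either direction. The smallest unadjusted p was 0.163.

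The second question was whether AECs changed them in angiotensin II-infused mice. Again 0 of 34 had an unadjusted p under 0.05, against 2.54% of all genes, and 0 by voom. Of the 34, 21 were higher and 13 lower with AECs, with a median log2 fold change of 0.03 against -0.02 over all genes, and the smallest p was 0.168. In vehicle-infused mice AECs likewise gave 0 of 34 (background 2.41%), as did angiotensin II among AEC-treated mice (background 2.66%) and the interaction of both treatments (background 2.54%). The smallest p values there were 0.155, 0.154 and 0.129, and voom also gave 0 in each. In the fit limited to a mean of at least 1 FPKM, backgrounds were 0.872, 0.769, 0.996 and 0.865% in the order of this paragraph. For the interaction only 18 of the 34 intervals lay within 1.5-fold. The comparisons share groups, so they are not independent of one another.

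**Figure D3:**
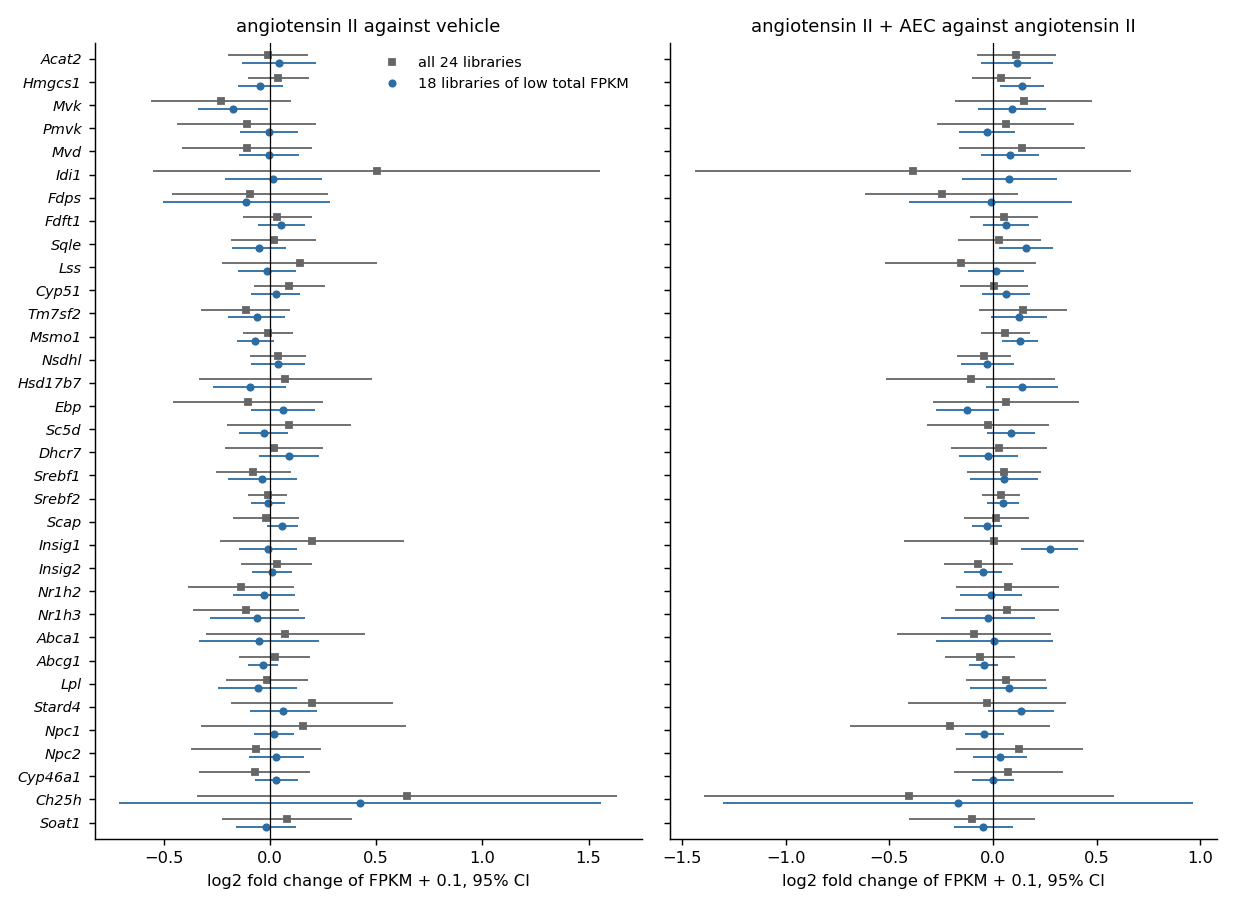
Log2 fold change of FPKM + 0.1 with 95% confidence interval for each of the 34 genes, for angiotensin II against vehicle (left) and angiotensin II + AEC against angiotensin II (right). Squares are fits to all 24 libraries and circles to the 18 of low total FPKM; on the right, the circle of Insig1 lies at 0.27 and its square near 0.

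Hmgcs1 reads (lowest, median, highest) were 29.2, 33.4 and 36.0 FPKM in vehicle, 30.7, 33.7 and 36.5 in angiotensin II, 32, 33.8 and 37.0 in vehicle + AEC, and 29.4, 35.5 and 39.1 in angiotensin II + AEC. The 4 groups overlapped throughout. Its log2 fold change was 0.04 ± 0.07 (SE, n = 6 per group) for angiotensin II, with an adjusted p of 0.994 and an exact two-sided permutation p of 0.541. With AECs in angiotensin II-infused mice it was 0.04 (95% confidence interval -0.10 to 0.18; exact permutation p = 0.580).

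Srebf2 was the least variable of the regulators. Its lowest, median and highest values were 32.5, 34.3 and 35.4 FPKM in vehicle, 31.5, 33.9 and 36.0 in angiotensin II, 32.4, 34 and 37.0 in vehicle + AEC, and 33.1, 34.7 and 36.3 in angiotensin II + AEC. The groups lay on top of each other. Angiotensin II gave a log2 fold change of -0.01 with an interval of -0.10 to 0.08 (exact permutation p = 0.792), and AECs in angiotensin II-infused mice gave 0.04 with an interval of -0.05 to 0.13 (exact permutation p = 0.312).

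Cyp46a1 read 52.3, 55.6 and 80.0 FPKM (lowest, median, highest) in vehicle, 51.6, 56.5 and 72.1 in angiotensin II, 52.7, 54.9 and 82.9 in vehicle + AEC, and 53.2, 57.7 and 75 in angiotensin II + AEC. The highest value of each group came from the 6 libraries of high total FPKM. Its log2 fold change was -0.07 ± 0.13 (SE, n = 6 per group; exact permutation p = 0.613) for angiotensin II and 0.07 ± 0.13 (exact permutation p = 0.522) for AECs in angiotensin II-infused mice. Within the 18 libraries the group means were 54.5 ± 1.62 (SD, n = 4), 55.8 ± 3.08 (n = 5), 55.5 ± 3.03 (n = 5) and 55.8 ± 3.21 (n = 4) FPKM in the same order of groups. No group mean stood apart from the spread between mice.

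Abca1 had a median of 1.76 FPKM (1.11 to 2.27) in vehicle, 1.93 (1.31 to 2.04) in angiotensin II, 1.97 (1.32 to 2.15) in vehicle + AEC and 1.75 (1.14 to 2.18) in angiotensin II + AEC. All groups overlapped. Its intervals were wider than those of Srebf2, at -0.30 to 0.45 for angiotensin II (log2 fold change 0.07, exact permutation p = 0.699) and -0.47 to 0.28 for AECs in angiotensin II-infused mice (log2 fold change -0.09, exact permutation p = 0.593).

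Within the 18 libraries of low total FPKM, 4 of the 34 genes had an unadjusted p under 0.05 for angiotensin II + AEC (n = 4) against angiotensin II (n = 5), all 4 higher with AECs. The background there was 4.61% of all genes in either direction and 2.2% higher. The 4 genes, Insig1, Msmo1, Sqle and Hmgcs1, were singled out after their values were seen, and none passed adjustment over all genes (0.0% of genes did, lowest adjusted p of the 34 = 0.821).

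Insig1 had the largest of these differences. Its 4 values with AECs were 23.1, 24.1, 22.3 and 23.5 FPKM, and the 5 without were 21.6, 17.8, 18.4, 21.3 and 17.5. The groups did not overlap. The mean was 23.3 ± 0.754 (SD, n = 4) against 19.3 ± 1.98 (n = 5), a log2 fold change of 0.27 (95% confidence interval 0.14 to 0.41; adjusted p = 0.821 by limma). The exact two-sided permutation p was 0.0238, where 0.00794 is the smallest this design allows. Vehicle mice read 19.0 to 19.7 and vehicle + AEC mice 18.6 to 22.2 FPKM in this set. In the 3 libraries of high total FPKM the order was the opposite, with 11.9 and 11.2 FPKM with AECs against 14.6 without. With all 24 libraries the fold change was 0.00 ± 0.21 (SE), and with the library set as a term 0.13 ± 0.08.

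Msmo1 was 12.8, 14.1, 13.8 and 13.7 FPKM with AECs and 11.9, 12.1, 12.2, 13.4 and 12.7 without. Values overlapped (log2 fold change 0.13, interval 0.04 to 0.22, exact permutation p = 0.0317). Sqle read 10.8, 11.8, 11.8 and 11.7 FPKM with AECs and 11.1, 10.1, 10.1, 11.0 and 9.32 without. They too overlapped, by the lowest AEC-treated mouse (log2 fold change 0.16, interval 0.03 to 0.29, exact permutation p = 0.0476). For Hmgcs1 the 4 mice with AECs had 34.7, 36.2, 37.0 and 39.1 FPKM and the 5 without 34.5, 32.3, 33, 36.5 and 30.7. One angiotensin II-infused mouse lay among the AEC-treated ones (log2 fold change 0.14, interval 0.03 to 0.24, exact permutation p = 0.0397). Insig1 and Msmo1 kept an unadjusted p under 0.05 whichever of the libraries compared was left out. Hmgcs1 lost it without angiotensin II + AEC 4 and Sqle without angiotensin II 6. Without angiotensin II 4 the count was 8 of the 34, where 4.99% of all genes tested fell under 0.05. As with Insig1, the order was the opposite in the libraries of high total FPKM. Hmgcs1 read 31.3 and 29.4 FPKM there with AECs against 34.4 without. Msmo1 read 12.54 and 11.96 against 13.47, and Sqle 8.47 and 8.49 against 9.65. With the library set as a term over all 24 libraries, Hmgcs1 had a log2 fold change of 0.07 ± 0.05 (SE). That of Msmo1 was 0.07 ± 0.05 and that of Sqle 0.08 ± 0.06. In the same order, unadjusted limma p values were 0.189, 0.15 and 0.18.

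**Figure D4:**
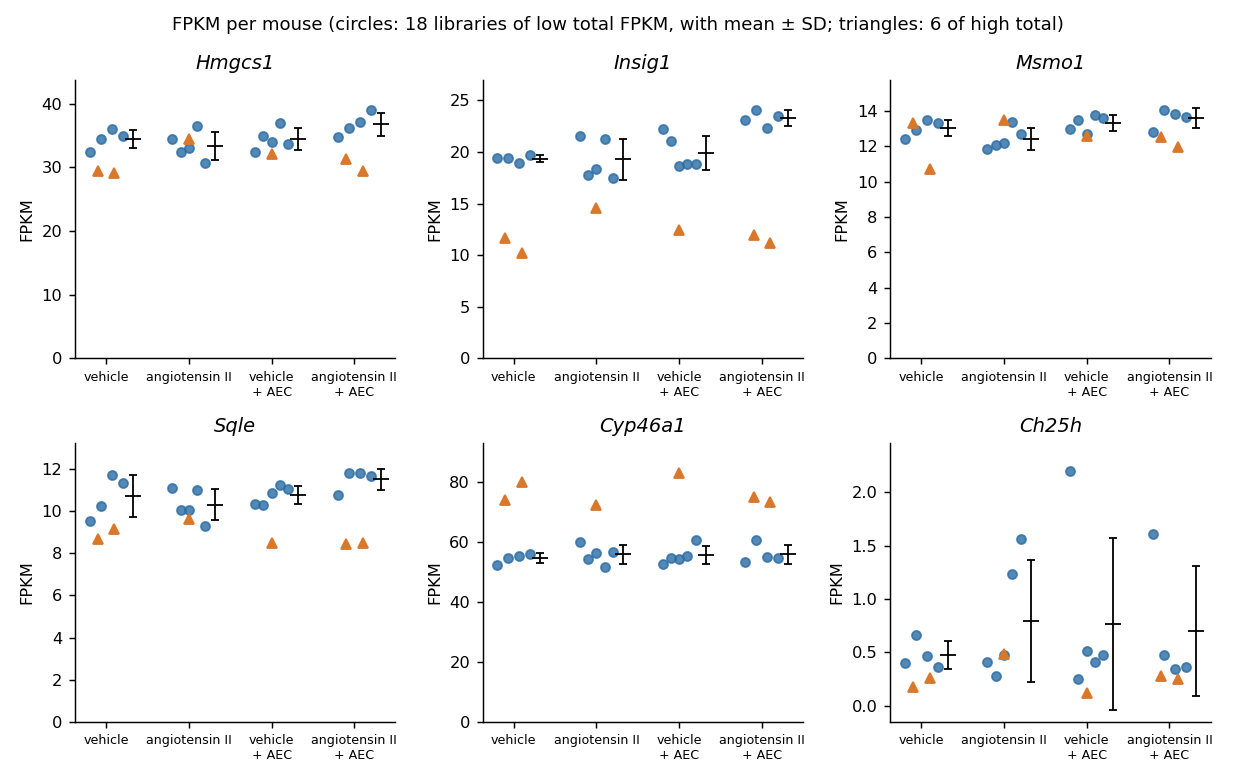
FPKM per mouse of 6 genes in the 4 groups. Circles are the 18 libraries of low total FPKM with their mean ± SD beside them, and triangles the 6 of high total; the Insig1 circles of angiotensin II + AEC (22.3 to 24.1) lie above those of angiotensin II (17.5 to 21.6), while its triangles lie at 10.3 to 14.6.

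By role, this comparison within the 18 libraries had 5 of 7 mevalonate genes, 8 of 11 sterol genes, 3 of 7 regulators, 4 of 6 transport genes and 0 of 3 turnover genes higher with AECs. The median log2 fold change of the 34 was 0.04, against 0.00 over all genes. Of the 44 cell type markers, 2 had an unadjusted p under 0.05 in the same comparison, Gfap (astrocytes) at -0.10 and Camp (neutrophils) at 1.42. All 4 choroid plexus markers had negative log2 fold changes (-0.25 to -0.08, median -0.19), with a smallest unadjusted p of 0.152 by limma. Their summed level was 353 to 686 FPKM with AECs (median 492) and 498 to 621 without (median 591). The sum in AEC-treated mice thus ran both below and above that in the others. The other 7 sums also overlapped. Those of 6 astrocyte markers were 281 to 293 FPKM with AECs and 275 to 296 without, of 7 oligodendrocyte markers 1203 to 1469 and 1261 to 1400, and of 6 neuronal markers 733 to 787 and 738 to 792. Those of 5 microglia markers were 69.2 to 71.7 and 67.3 to 71.5 FPKM, of 5 endothelial markers 79.3 to 88.7 and 79.1 to 95.8, of 5 meningeal fibroblast markers 13.6 to 15.4 and 13.4 to 16.1, and of 6 neutrophil and blood markers 46.0 to 188 and 46.3 to 181. No marker was at 0 in all libraries. The part of cell composition in these differences was not tested.

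The interaction within the 18 libraries had 3 of 34 genes with an unadjusted p under 0.05 (background 4.2%). Insig1 (0.24) and Tm7sf2, a sterol reductase (0.19), had positive log2 interaction terms, and Scap had a negative one (-0.13). In vehicle-infused mice Scap alone fell under 0.05 with AECs (background 4.18%), at a log2 fold change of 0.10. Among AEC-treated mice 2 genes did so for angiotensin II (background 4.27%), Insig1 at 0.23 and Abcg1 at -0.08. Abcg1 read 16.2, 17, 16.5 and 17.3 FPKM with both treatments and 17.8, 17.4, 17.6, 18 and 17.8 with AECs alone. The values did not overlap and the fold was 0.945 (exact permutation p = 0.00794, the smallest this design allows). For angiotensin II against vehicle, Mvk alone did so (background 3.86%), with 7.42 to 8.45 FPKM in 5 mice against 8.42 to 9.48 in 4 and a log2 fold change of -0.17 (exact permutation p = 0.0238). These genes too were named after their values were seen, and their adjusted p values by limma were 0.999 or above.

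Cell type markers also fell under 0.05 in these comparisons. Among AEC-treated mice 4 of 44 did so for angiotensin II, namely Col1a1 (meningeal fibroblasts) at a log2 fold change of 0.33, the choroid plexus markers Ttr at -0.33 and Kl at -0.25, and Camp at 1.43. The first 3 had unadjusted p values of 0.0048, 0.049 and 0.0347 by limma and Camp one of 0.0165. In size these differences were larger than those of Insig1 and Abcg1 there. In vehicle-infused mice Col1a1 at -0.24 and Lum (meningeal fibroblasts) at -0.31 did so with AECs. For angiotensin II against vehicle S100a9 (neutrophils) did so at 1.01, and Col1a1 had a log2 interaction term of 0.37. Their part in the differences of the cholesterol genes was not tested.

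Ch25h stood apart from the other 33 in its spread. The study, which used DESeq, named this gene among the top ones raised by angiotensin II in these mice. From 3 to 54 fragments per library lie behind its values. Vehicle mice read 0.398, 0.664, 0.470, 0.363, 0.172 and 0.261 FPKM, and angiotensin II-infused mice 0.410, 0.276, 0.480, 1.23, 0.488 and 1.56. Vehicle + AEC mice read 2.20, 0.249, 0.517, 0.405, 0.476 and 0.116, and angiotensin II + AEC mice 1.60, 0.476, 0.348, 0.363, 0.280 and 0.249. The 4 highest mice belonged to 3 groups, 2 of them to angiotensin II, and the other mice of all groups overlapped. Its log2 fold change for angiotensin II was 0.65 with an interval of -0.34 to 1.63 (exact permutation p = 0.149), and within the 18 libraries 0.42.

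Mice also differed within groups, and other genes were compared with Hmgcs1 on these differences. Each value was taken as the deviation of log2(FPKM + 0.1) from its group mean over the 18 libraries, and 33 relations were computed. Permutations moved these deviations over all 18 libraries and not within groups, so their p values are approximate and may be too small. Sqle alone passed adjustment over the 33. Its Pearson's r with Hmgcs1 was 0.78 (permutation p = 0.00022, adjusted 0.00726) and its Spearman's rho 0.72 (permutation p = 0.00111, adjusted 0.0366). Without the 2 mice farthest from the Hmgcs1 median (vehicle + AEC 4 and angiotensin II 4) r was 0.77, and over the 6 libraries of high total FPKM, where group means were not removed, it was 0.47. Next came Msmo1 (r = 0.56), Srebf2 (0.53), Sc5d (0.52) and Stard4 (0.52), each with an adjusted permutation p of 0.168. The r of Msmo1 was 0.34 without those 2 mice. Insig1 had an r of 0.28 and Cyp46a1 one of -0.02. Among the 11 sterol genes the median r was 0.28, and among the 7 regulators -0.07.

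**Figure D5:**
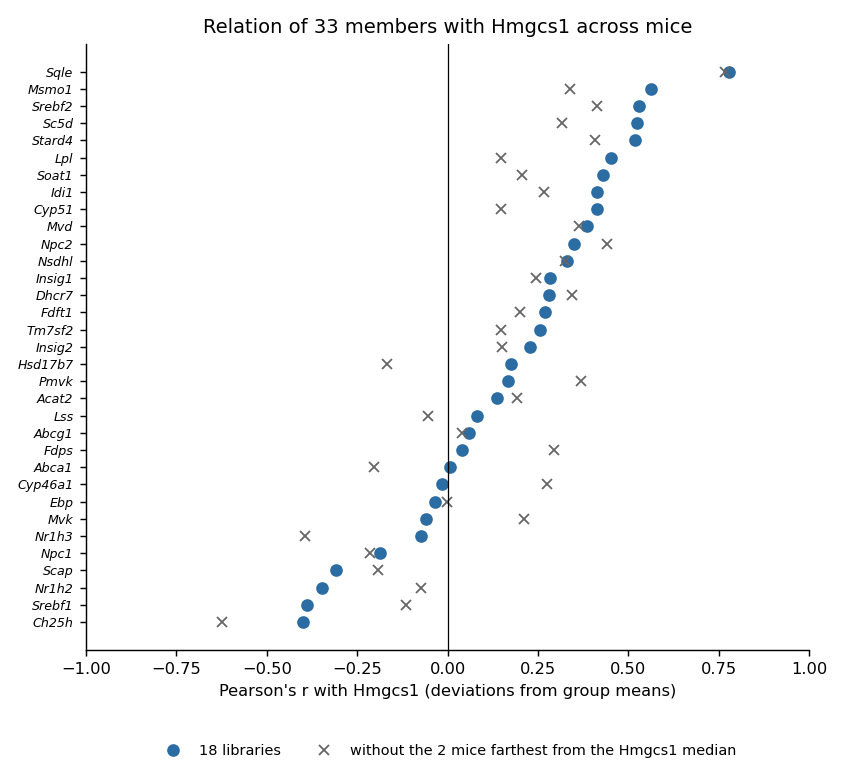
Pearson's r of each of 33 genes with Hmgcs1 across mice, on deviations of log2(FPKM + 0.1) from group means. Circles use the 18 libraries of low total FPKM and crosses leave out the 2 mice farthest from the Hmgcs1 median; Sqle is highest at 0.78 and Ch25h lowest at -0.40.

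Other genes of the pathway were counted beside these. The list held 35 genes of the isoprenoid branch, fatty acid synthesis, lipoprotein receptors with sterol transport, and oxysterol steps, of which 34 were tested. With all 24 libraries 0 of 34 had an unadjusted p under 0.05 in each of the 5 comparisons. Within the 18 libraries the counts were 0 for angiotensin II against vehicle (background 3.86%), 2 for AECs in angiotensin II-infused mice (4.61%), 1 for AECs in vehicle-infused mice (4.18%), 2 for angiotensin II among AEC-treated mice (4.27%) and 0 for the interaction (4.2%). With 34 genes, shares this small come to 1 gene or 2. For AECs in angiotensin II-infused mice the genes were Fnta (a farnesyltransferase subunit) at -0.11 and Lrp8 (a lipoprotein receptor) at -0.16 on the log2 scale, with unadjusted p values by limma of 0.0463 and 0.0182 and adjusted ones of 0.998. In the other 2 comparisons they were Cyp27a1, a sterol hydroxylase, at -0.14 with AECs in vehicle-infused mice, and Gramd1b, a sterol carrier, at -0.07 and Lrp8 at -0.14 for angiotensin II among AEC-treated mice. Their adjusted p values were 0.999 or above. Of the 8 fatty acid synthesis genes none had an unadjusted limma p under 0.05 in any of the 5 comparisons within the 18.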

How the data were processed

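The authors sequenced poly-A RNA and deposited a table of FPKM per gene for 24 mice with Ensembl gene models (GRCm38, mm10). The submitters' processing notes name DESeq 1.10.1. Aligner and counter are not given in the sources used here. Values were whole multiples of one fragment's worth (100% of those checked, tolerance 0.05), which gave each library's fragments. The authors' FPKM were tested as log2(FPKM + 0.1) with limma 3.58.1 (R 4.3.3, trended variance, 27286 genes above 0 in at least 6 mice, 4 groups in one fit, Benjamini-Hochberg adjustment), so folds of low genes are understated. All 34 genes passed that filter. Single genes had exact two-sided permutation tests over mice, and correlations 100000 permutations. Scripts were tested on simulated data. Full statistics were set for genes with an unadjusted p under 0.05 with all 24 libraries (none), and for Hmgcs1, Srebf2, Cyp46a1 and Abca1. The genes and lists were chosen with earlier results of these data known. Alternatives were another pseudocount, filter, scaling, voom, array weights, library set, replicate block and leaving out mice. Protein sequences were not used here.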

Additional observations from a re-analysis of the deposited data

Results flagged for a closer look

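In each group of 6 mice, the gap between the highest or lowest mouse and its neighbour was divided by the range of the group. This exceeded the 95% critical value of Dixon's test in 25 of 136 groups of values, of which chance alone would flag about 1 in 20. In 22 of the 25 the mouse was one of the 6 libraries of high total FPKM, either angiotensin II 5 or vehicle + AEC 6, each the only such library of its group. Angiotensin II 5 was highest by this ratio for Mvk (0.799), Pmvk (0.871), Mvd (0.646), Fdft1 (0.734) and Npc2 (0.778). Angiotensin II 5 was lowest by this ratio for Idi1 (0.669), Insig2 (0.717) and Npc1 (0.874). Vehicle + AEC 6 was highest by this ratio for Mvd (0.719), Ebp (0.726), Dhcr7 (0.759), Scap (0.683), Npc2 (0.655) and Cyp46a1 (0.737). Vehicle + AEC 6 was lowest by this ratio for Sqle (0.653), Hsd17b7 (0.687), Sc5d (0.635), Insig1 (0.628), Abcg1 (0.863), Stard4 (0.719), Npc1 (0.775) and Soat1 (0.646). The other 3 lay in the set of 18. Ch25h stood out in vehicle + AEC 1 (0.807, at 2.20 FPKM) and in angiotensin II + AEC 1 (0.832, at 1.60 FPKM), and Fdps in angiotensin II 1 (0.741, at 0.395 FPKM).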

How the results depend on the processing

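The count of the 34 genes with an unadjusted p under 0.05 stayed at 0 in all 5 comparisons with a pseudocount of 1 or 0.01, with no filter or one of a mean FPKM of at least 1, with median ratio scaling, with voom and, in the 4 comparisons of groups, with only the compared groups. With array weights it was 2 for AECs in angiotensin II-infused mice and 1 for the interaction (background 4.7% of all genes in each). With the library set as a term it was 1 for AECs in vehicle mice (background 3.54%). It was also 1 for angiotensin II among AEC-treated mice (4.01%) and 1 for the interaction (3.41%). Each time the gene was Scap. Within the 18 libraries it was 1 for angiotensin II, 4 for AECs in angiotensin II-infused mice, 1 for AECs in vehicle mice, 2 for angiotensin II among AEC-treated mice and 3 for the interaction. Leaving out 1 mouse gave 0 to 1 for angiotensin II (1 without angiotensin II 5), 0 to 1 for AECs in vehicle mice, 0 to 1 for angiotensin II among AEC-treated mice and 0 to 2 for the interaction (the 1, 1 and 2 without vehicle + AEC 6). Without angiotensin II 5 the background for angiotensin II was 3.09%. Without vehicle + AEC 6 it was 4.35% for AECs in vehicle mice, 4.57% for angiotensin II among AEC-treated mice and 4.56% for the interaction. The cause of these shifts in count was not tested.

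The labels share replicate numbers between groups. Deviations of same-numbered mice correlated at -0.22 to 0.80 over 36 pairs, 28 of them above 0.1. Of 24 mice, 7 correlated best with their own number. All 6 libraries of high total FPKM bear number 5 or 6, so number and library set cannot be fully told apart. These values therefore do not decide whether the numbers mark pairs, and the main fit did not treat them as pairs. With a replicate block the count was 3 for angiotensin II (background 3.48%) and 2 for AECs in vehicle mice (3.8%). It was 3 for the interaction (5.19%), and 0 for AECs in angiotensin II-infused mice (3.64%) and angiotensin II among AEC-treated mice (4.02%). These backgrounds were higher than those of the fit without a block.

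Within the 18 libraries the 4 genes for AECs in angiotensin II-infused mice were also 4 with a pseudocount of 1, the mean FPKM filter, median ratio scaling, voom and the block, alternatives chosen after seeing the data. The backgrounds under these alternatives were 4.06 to 4.62% of all genes. Leaving out 1 mouse gave 3 to 8, with backgrounds of 4.15 to 4.99%.

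Directions close to 0 turned. For angiotensin II, Hmgcs1 was -0.0325 with array weights and -0.0458 within the 18 libraries, Srebf2 0.0029 with the set as a term and -0.0286 to 0.0104 leaving out 1 mouse, and Cyp46a1 0.0058 with array weights, 0.0051 with the set as a term, 0.0309 within the 18 and -0.13 to 0.0056 leaving out 1 mouse. Abca1 was -0.0095 with array weights, -0.0179 with the set as a term, -0.0511 within the 18 and -0.043 to 0.16 leaving out 1 mouse. For AECs in angiotensin II-infused mice, Cyp46a1 was -0.0023 with the set as a term and -0.00052 within the 18, and Abca1 0.0072 within the 18 and -0.18 to 0.0119 leaving out 1 mouse. Hmgcs1 there was 0.12 with array weights and 0.14 within the 18, both with an unadjusted limma p under 0.05.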
